A study of Homo sapiens with 12 samples.

Results

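The comparison is of 2 human pancreatic carcinoma cell lines, L3.6pl and FG, in ordinary culture: 3 L3.6pl arrays against 3 FG arrays, which are the 6 normoxia arrays among the 12 of the series. The members are all 19775 genes with a probe set that the platform annotation gives exactly 1 gene. Both lines were grown from frozen stock without passaging in DMEM with serum and were left untreated, and total RNA was hybridised to Affymetrix expression arrays. The other 6 arrays, 3 of each line, are from cultures that spent the last 24 h at 1% oxygen, and they entered no test of the main comparison. They are used to choose 1 probe set per gene, by the mean over all 12 arrays, to look at the same line difference in hypoxia and to test whether it differed from that in normoxia. The labels name no clone, tumour host or genetic change for either line, and each line is a single cell line, so that what is measured is a difference between these cultures. All levels below are log2 intensities, and every difference is L3.6pl minus FG on that log2 scale, given ± limma's standard error (n = 3 arrays per line).

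Both lines are known as derivatives of the same pancreatic carcinoma: FG is a well differentiated line, and L3.6pl was selected through rounds of growth and metastasis in mice. Pancreatic ductal carcinomas carry a ductal epithelial programme of keratins, mucins and cell junctions, and tumours are often sorted into a classical type, with gastric and secretory genes, and a basal-like type, with squamous genes. Loss or gain of chromosome segments is common in carcinoma lines and can shift the transcript levels of many neighbouring genes at once.

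Across genes, which are not independent replicates, Pearson's r was 0.974 to 0.996 between arrays of the same line. It was 0.953 to 0.973 between arrays of different lines. A principal component that held 60.0% of the variance separated the lines: FG arrays lay between -44.6 and -33.1 on it and L3.6pl arrays between 34.4 and 39.4. Replicate 1 of both lines stood apart on the second component, with 29.6% of the variance, at -41.0 for FG and -30.3 for L3.6pl while the other arrays were positive. These arrays also had the lowest mean over 29 proliferation genes, 8.15 in FG against 10.07 and 10.14, and 9.34 in L3.6pl against 10.26 and 10.14. Since same-numbered arrays of the lines moved together, the counts of list members, of genes by chromosome and of genes in runs of neighbours are given for the unpaired fit and for the fit with same-numbered arrays as pairs. Of 5 epithelial markers, EPCAM, KRT8, KRT18 and KRT19 had group means between 11.2 and 13.2 in both lines, beside a median of 6.30 over all genes. CDH1 was at 10.06 in FG and 9.42 in L3.6pl. Among the pancreatic ductal markers besides KRT19, KRT7 and MUC1 had group means between 9.28 and 10.48. SOX9 was at 5.91 in FG, below the median, and at 7.75 in L3.6pl. Of 7 fibroblast markers, LUM, DCN, PDGFRA, PDGFRB and COL1A2 had group means of at most 5.57. COL1A1 was above the median in both lines and COL3A1 in FG only, as described with the matrix genes. Leukocyte, acinar and endocrine markers had group means of at most 6.53. Of the endothelial markers, CDH5 and VWF were at most 4.70, and PECAM1 was at 6.70 in FG and 7.38 in L3.6pl (0.68 ± 0.14, adjusted p = 0.0318; 0.112 without FG replicate 2).

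In the unpaired fit, 1991 genes (10.1% of those tested) differed between the lines at an adjusted p below 0.05 with limma, of which 937 (4.74%) were higher and 1054 (5.33%) lower in L3.6pl. Of these, 356 were higher and 461 lower by at least 2-fold, and 36 were higher and 50 lower by at least 8-fold. In all 1991 the arrays of the lines did not overlap, which was so in 5562 genes (28.1%) of all tested. With same-numbered arrays as pairs 5361 genes passed (27.1%), 2882 higher (14.6%) and 2479 lower (12.5%), and these held all 1991. The unpaired count was 3201 without both replicate 1 arrays, and 1829 of the 1991 genes were among them. It was 816 without L3.6pl replicate 2, 961 without L3.6pl replicate 3, 947 without FG replicate 2 and 1254 without L3.6pl replicate 1. The median difference over all genes was 0.02. Where a named gene passed but lost its call on leaving out a single array, the adjusted p without the array that raised it most is given after its value.

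The genes furthest below FG in L3.6pl were MAGEA6, a cancer-testis antigen gene that is silent in most adult tissues, and CPS1, which makes the carbamoyl phosphate that enters the urea cycle. MAGEA6 was at 10.65, 10.73 and 11.02 in FG and 3.33, 3.70 and 3.43 in L3.6pl (replicates 1 to 3 of each line, the order kept throughout), a difference of -7.32 ± 0.14, adjusted p = 1.70e-05. CPS1 was at 11.32, 11.37 and 11.62 in FG and 4.80, 4.59 and 4.68 in L3.6pl. Its log2 difference was -6.74 ± 0.12, adjusted p = 1.45e-05, which is 107-fold. Both groups of arrays are tight for both genes and lie far apart. The values on the L3.6pl arrays are near the low end of the scale, which ran from 1.96 to 14.5. The files carry no detection calls, so a fold against such a value is that of the measured intensities and cannot be read as a ratio of transcripts.

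MAGEA12, another gene of the MAGEA family on the X chromosome, was at 9.04, 9.21 and 9.60 in FG and 3.36, 4.04 and 3.75 in L3.6pl. This is a difference of -5.56 ± 0.22, adjusted p = 1.48e-04. MAGEB2, of a related X-linked family, was at 5.94, 7.13 and 8.10 in FG and 2.98, 2.87 and 3.19 in L3.6pl. The line difference was -4.04 ± 0.51, adjusted p = 0.00625. The FG arrays spread over more than 2 log2 units for MAGEB2, and still none came near the L3.6pl arrays. MAGEA11 went the other way, at 7.01, 7.26 and 7.71 in FG and 8.03, 8.36 and 8.51 in L3.6pl. The lines differed by 0.98 ± 0.21, adjusted p = 0.0369, and its adjusted p was 0.144 without L3.6pl replicate 2. PRAME (1.11 ± 0.26, adjusted p = 0.0462; 0.156 without L3.6pl replicate 3) and MAGED1, a MAGE gene expressed in many tissues (0.48 ± 0.10, adjusted p = 0.028; 0.121 without L3.6pl replicate 2), were also higher in L3.6pl. In all, 3 of 18 cancer-testis genes with a probe set used here were higher, 3 were lower and 12 did not pass (3 higher and 4 lower in pairs). Over all genes 4.74% were higher and 5.33% lower (14.6% and 12.5% in pairs). MAGEA1 was among those that did not (-0.95 ± 0.29, adjusted p = 0.102; in pairs 0.0104).

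The stretches before the starts of these MAGE genes are shown because members of 1 family with related promoters lay on opposite sides of the comparison. Each is the 150 bases directly before the gene's start, 5′ to 3′ on the gene's strand, from RefSeq (GRCh38.p14), with an 8-letter string that the 4 promoters share, GGATGTGA, in capitals. The coordinates are chrX:152769690-152769839 (minus strand) for MAGEA6, chrX:152733607-152733756 (plus strand) for MAGEA12, of which the first of 2 entries is shown, chrX:30215413-30215562 (plus strand) for MAGEB2 and chrX:149711910-149712059 (plus strand) for MAGEA11.
MAGEA6: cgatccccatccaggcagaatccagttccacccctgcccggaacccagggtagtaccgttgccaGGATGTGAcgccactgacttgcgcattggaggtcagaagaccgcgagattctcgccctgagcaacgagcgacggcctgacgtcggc
MAGEA12: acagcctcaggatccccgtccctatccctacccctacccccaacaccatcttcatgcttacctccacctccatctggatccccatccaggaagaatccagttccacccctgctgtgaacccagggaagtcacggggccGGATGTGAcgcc
MAGEB2: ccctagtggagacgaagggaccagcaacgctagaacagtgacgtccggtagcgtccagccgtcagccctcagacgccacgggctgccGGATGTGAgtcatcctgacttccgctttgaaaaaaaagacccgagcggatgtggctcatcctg
MAGEA11: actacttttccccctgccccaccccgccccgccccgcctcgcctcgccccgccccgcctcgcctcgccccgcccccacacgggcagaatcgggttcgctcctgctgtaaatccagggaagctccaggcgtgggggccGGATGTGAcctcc
The string was picked after the sequences and values were seen, and it was searched on both strands. It lies in 0.598% of the 35116 promoter entries over the same 150 bases, and in 6 of the 15 cancer-testis genes with an entry: the 3 that were lower, MAGEA11, which was higher, and MAGEA4 and MAGEA8, which did not pass. The 300-base window of MAGEA6 is identical to that of MAGEA3 in all 300 bases, and a probe set named for 1 MAGEA gene can take up transcripts of another. The stretch of MAGEA6 has 13 CpG dinucleotides, those of MAGEB2 and MAGEA11 have 12 and 15, and that of MAGEA12 has 4, beside a median of 7 over all entries.

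Among the other genes with the largest lower values in L3.6pl, several are surface or secreted proteins. CD24, a heavily glycosylated surface protein used as a marker of epithelial and stem-like cells, was at 12.997, 12.67 and 12.71 in FG and 7.18, 7.24 and 7.42 in L3.6pl. Its log2 difference was -5.51 ± 0.12, adjusted p = 2.49e-05, and all 6 of its probe sets had the same sign. MSLN, mesothelin, a surface antigen of many pancreatic carcinomas, was at 11.01, 9.18 and 8.73 in FG and 3.99, 3.84 and 3.97 in L3.6pl, with the highest value on FG replicate 1, and its difference was -5.71 ± 0.56, adjusted p = 0.00282. STEAP4, a metalloreductase, was at 10.02, 10.52 and 10.43 in FG and 4.35, 4.80 and 4.48 in L3.6pl (-5.78 ± 0.18, adjusted p = 6.87e-05). These genes separated the lines on every array, as the rule that picked the largest differences required. OLR1, a scavenger receptor for oxidised lipoprotein, differed by -5.73 ± 0.13, adjusted p = 2.49e-05. CA2, a carbonic anhydrase, was at 7.44, 9.28 and 9.58 in FG and 3.85, 3.48 and 3.57 in L3.6pl, lowest of the FG arrays on replicate 1, and differed by -5.13 ± 0.55, adjusted p = 0.00373. REG1A, a secreted lectin of the regenerating family, differed by -4.92 ± 0.18, QPCT, a glutaminyl cyclase, by -4.93 ± 0.20, SH3GL2, an endophilin, by -4.50 ± 0.19, TMEM52B by -4.59 ± 0.17 and TPGS2 by -4.69 ± 0.26 (adjusted p between 0.000127 and 0.000441).

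On the other side stood SOSTDC1, a secreted antagonist of BMP and Wnt ligands, at 4.17, 4.08 and 4.26 in FG and 11.28, 10.49 and 10.70 in L3.6pl. This is a difference of 6.66 ± 0.21, adjusted p = 6.87e-05. NTRK2 encodes TrkB, the receptor tyrosine kinase for brain-derived neurotrophic factor, and was at 3.76, 3.49 and 3.32 in FG and 10.49, 9.95 and 9.62 in L3.6pl. The line difference was 6.50 ± 0.24, adjusted p = 1.27e-04, with the same sign in all 6 of its probe sets. KRT13, a keratin of stratified epithelia, was at 5.33, 7.52 and 7.95 in FG and 12.60, 13.10 and 13.02 in L3.6pl. The lines differed by 5.97 ± 0.66, adjusted p = 0.00428. The FG arrays differed among themselves for KRT13, replicate 1 being the lowest, and the L3.6pl arrays did not come near them. IL1R1, the signalling receptor for interleukin 1, was at 4.88, 4.09 and 4.89 in FG and 10.46, 9.39 and 9.59 in L3.6pl (5.19 ± 0.34, adjusted p = 8.01e-04). HLA-DRA, the alpha chain of an MHC class II molecule, was at 5.23, 5.10 and 4.98 in FG and 9.62, 9.26 and 9.59 in L3.6pl (4.38 ± 0.13, adjusted p = 6.87e-05). Butyrylcholinesterase, BCHE, was at 3.75, 4.15 and 4.54 in FG and 9.22, 8.92 and 9.00 in L3.6pl (4.90 ± 0.21, adjusted p = 1.70e-04). None of these genes had an FG array within 4 log2 units of the L3.6pl mean.

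Further genes of this kind were PLAT, tissue plasminogen activator (4.52 ± 0.18, adjusted p = 1.48e-04), PTPRZ1, a receptor tyrosine phosphatase (4.44 ± 0.24, adjusted p = 4.07e-04), and STC1, the secreted glycoprotein stanniocalcin (4.35 ± 0.35, adjusted p = 0.00136). PHLDA1 was at 7.05, 5.90 and 7.02 in FG and 10.86, 10.82 and 10.85 in L3.6pl, with 1 low FG array, replicate 2, and differed by 4.19 ± 0.31, adjusted p = 0.00112. DMBT1, a secreted scavenger receptor protein of mucosal epithelia, differed by 4.09 ± 0.37, adjusted p = 0.00219. An uncharacterised transcript, LOC105375172, differed by 4.48 ± 0.23 and lies in the chromosome 7 run described with the neighbouring genes. All 29 genes of the plot of largest differences kept their call when any 1 of the 6 arrays was left out.

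**Figure D1:**
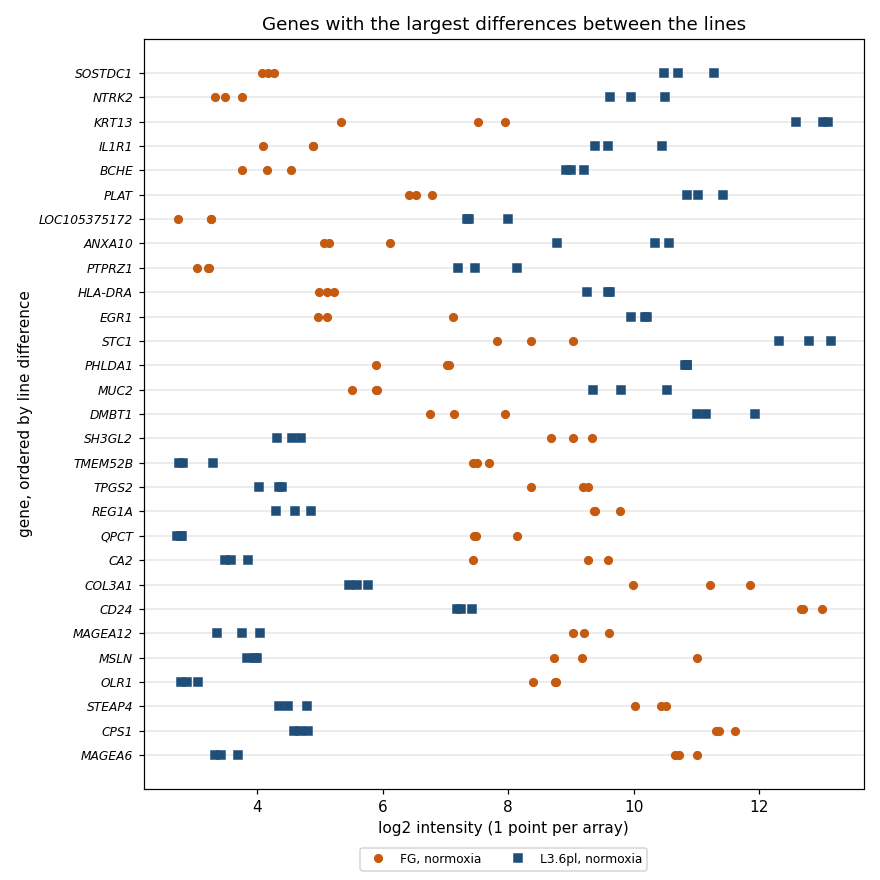
Log2 intensity (x axis) of the 29 genes with the largest differences between the lines in normoxia, 1 row per gene and 1 point per array, FG in orange circles and L3.6pl in blue squares, 3 arrays each. The genes at the bottom, from MAGEA6, are lower in L3.6pl and those at the top, to SOSTDC1, higher. The genes were picked among those whose lines did not overlap, so in no row do the orange and blue points overlap.

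Cell junction and keratin genes were next, as measures of epithelial character. The count for this and each later list stands beside the share over all genes. That share was 4.74% higher and 5.33% lower unpaired, and 14.6% higher and 12.5% lower in pairs. Desmosomes anchor keratin filaments at cell contacts, and 5 of their 12 genes were higher and 1 lower in L3.6pl (7 and 1 in pairs). The desmosomal cadherin DSC2 was at 6.31, 6.35 and 6.11 in FG and 7.68, 7.88 and 7.93 in L3.6pl. Its log2 difference was 1.58 ± 0.11, adjusted p = 9.33e-04. Desmocollin DSC3 differed by 1.60 ± 0.27, adjusted p = 0.0156 (0.0707 without FG replicate 2). The plakophilin PKP1 differed by 1.78 ± 0.17, adjusted p = 0.00239, while PKP2 was lower (-1.15 ± 0.13, adjusted p = 0.00463). The abundant desmosomal linker DSP did not pass (0.58 ± 0.29, adjusted p = 0.314) except in pairs (0.00818). Of 12 keratins, 4 were higher and none lower (6 and 2 in pairs): KRT13, the basal keratin KRT14 (1.80 ± 0.34, adjusted p = 0.0239; 0.108 without L3.6pl replicate 2), KRT23 (1.71 ± 0.29, adjusted p = 0.017; 0.0702 without FG replicate 2) and the ductal keratin KRT19, at 12.89, 12.68 and 12.81 in FG and 13.26, 13.23 and 13.23 in L3.6pl (0.45 ± 0.09, adjusted p = 0.0264; 0.108 without L3.6pl replicate 2). KRT5 (0.38 ± 0.14, adjusted p = 0.164; in pairs 0.0217) and KRT18 (-0.37 ± 0.19, adjusted p = 0.341; in pairs 0.067) did not pass.

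Of 21 tight junction and adhesion genes, 1 was higher, the tricellular junction gene MARVELD2 (0.52 ± 0.12, adjusted p = 0.0499; 0.151 without L3.6pl replicate 3), and 1 lower, the membrane protease ST14 (-0.50 ± 0.11, adjusted p = 0.0374; 0.149 without L3.6pl replicate 2), and in pairs 2 were higher and 6 lower. The unpaired count is near the 10.1% called over all genes. E-cadherin, CDH1, was at 10.63, 9.75 and 9.82 in FG and 9.98, 9.18 and 9.09 in L3.6pl. Replicate 1 had the highest value in each line and the lines overlapped, so the difference of -0.64 ± 0.33 did not pass (adjusted p = 0.321), and with the pairs it did (adjusted p = 0.00262). CLDN1, a claudin of tight junctions, differed by 1.13 ± 0.27 (adjusted p = 0.0521, in pairs 0.00183). EPCAM differed by 0.06 ± 0.08, adjusted p = 0.75.

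Of 19 mesenchymal markers and transition factors, 1 was higher and 3 lower (5 and 4 in pairs). TAGLN, an actin-binding protein of smooth muscle and fibroblasts, was at 7.16, 9.29 and 10.57 in FG and 5.58, 5.48 and 5.27 in L3.6pl. Its FG arrays spread over more than 3 log2 units and the difference of -3.56 ± 0.80 passed narrowly (adjusted p = 0.0418; 0.147 without L3.6pl replicate 2). The transcription factor TCF4 was lower (-1.44 ± 0.10, adjusted p = 8.06e-04), as was fibronectin, FN1 (-1.64 ± 0.33, adjusted p = 0.0289; 0.12 without L3.6pl replicate 2). The cadherin CDH11 was higher (0.94 ± 0.13, adjusted p = 0.00846). The intermediate filament gene VIM, at 12.21, 11.34 and 11.31 in FG and 12.72, 12.37 and 12.13 in L3.6pl, did not pass (0.79 ± 0.28, adjusted p = 0.157), and did in pairs (0.00465). The list therefore held called genes in both directions.

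Classical and basal-like genes were read from lists known from work on pancreatic tumours. Of 18 basal-like genes, 6 were higher and 2 lower (9 and 3 in pairs). SOX2, a transcription factor of stem and squamous cells, was at 8.25, 7.89 and 8.19 in FG and 10.01, 9.43 and 9.56 in L3.6pl. This is a difference of 1.55 ± 0.18, adjusted p = 0.00481. SERPINB4, a squamous cell serpin whose probes can take up its near-identical neighbour SERPINB3, was at 5.54, 6.24 and 7.14 in FG and 8.91, 9.31 and 8.97 in L3.6pl (2.76 ± 0.39, adjusted p = 0.00904; 0.0522 without L3.6pl replicate 2). S100A2 was higher by 0.99 ± 0.15 (adjusted p = 0.0121; 0.066 without L3.6pl replicate 2). Against these, LY6D was lower (-2.10 ± 0.20, adjusted p = 0.00271), as was SCEL, a gene of cornifying epithelia (-0.91 ± 0.16, adjusted p = 0.0195; 0.0707 without FG replicate 2). Of 24 classical and gastric-type genes, 3 were higher and 1 lower (6 and 3 in pairs). ANXA10, an annexin of gastric epithelium, was at 5.06, 5.14 and 6.11 in FG and 8.78, 10.34 and 10.57 in L3.6pl, with replicate 1 the lowest of the L3.6pl arrays, and differed by 4.46 ± 0.53, adjusted p = 0.00507. The secreted disulfide isomerases AGR3 (1.18 ± 0.17, adjusted p = 0.00904) and AGR2 (0.67 ± 0.13, adjusted p = 0.026; 0.103 without FG replicate 2) were higher. The sialyltransferase ST6GALNAC1 was lower (-0.87 ± 0.14, adjusted p = 0.0156; 0.0735 without L3.6pl replicate 2).

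Mucins, the glycoproteins of the ductal surface and of secreted mucus, went both ways, with 1 of 13 measured genes of the mucin and mesothelin list higher and 2 lower (3 and 3 in pairs). MUC2, the gel-forming mucin of the intestine, was at 5.88, 5.50 and 5.90 in FG and 10.53, 9.80 and 9.35 in L3.6pl. The line difference was 4.13 ± 0.30, adjusted p = 0.00102. MUC13, a membrane mucin, was at 8.83, 8.13 and 8.58 in FG and 4.95, 5.38 and 4.91 in L3.6pl. The lines differed by -3.44 ± 0.22, adjusted p = 6.59e-04. The gap between the lines was several times the spread of the arrays for both. MUC1 was at 11.27, 10.58 and 9.58 in FG and 10.29, 8.97 and 8.58 in L3.6pl, with overlapping lines, and passed only in pairs (-1.20 ± 0.57, adjusted p = 0.289 and in pairs 0.00233). MUC4 differed by 0.72 ± 0.58 (adjusted p = 0.562, in pairs 0.009).

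Of 22 transcription factors of pancreas, foregut and stem cells, 2 were higher, SOX2 and the ductal factor SOX9, and 1 lower, SOX4 (4 and 2 in pairs). SOX9 was at 5.56, 5.48 and 6.68 in FG and 8.39, 7.42 and 7.42 in L3.6pl (1.84 ± 0.41, adjusted p = 0.0408; 0.142 without FG replicate 2), and SOX4 differed by -0.92 ± 0.15, adjusted p = 0.0162 (0.0789 without L3.6pl replicate 2). MYC did not pass (0.15 ± 0.21, adjusted p = 0.762), nor did KLF5 (0.01 ± 0.11, adjusted p = 0.97). None of 13 acinar, endocrine and hepatic genes passed with limma, 1 had an unadjusted p below 0.05, and 1 was higher in pairs.

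Growth factor signalling was described from ligands to receptors to early targets. EREG, epiregulin, a ligand of the EGF receptor family, was at 6.30, 5.30 and 6.10 in FG and 8.30, 8.30 and 8.46 in L3.6pl (2.46 ± 0.26, adjusted p = 0.00361). TGFA, transforming growth factor alpha, another ligand, was at 7.65, 7.22 and 7.97 in FG and 8.99, 8.98 and 9.39 in L3.6pl (1.51 ± 0.22, adjusted p = 0.00989). These were the 2 of 12 measured genes of the family that passed, and in pairs 7 were higher and none lower. EGFR, the receptor they bind, was at 10.13, 9.33 and 8.65 in FG and 11.18, 11.12 and 10.54 in L3.6pl. FG replicate 1 was the nearest to the L3.6pl arrays, and the difference of 1.58 ± 0.38 missed the threshold (adjusted p = 0.0534) and passed in pairs (adjusted p = 0.00174). ERBB2 differed by -0.02 ± 0.23, adjusted p = 0.981.

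Of 31 genes of other receptor tyrosine kinases and their ligands, 6 were higher and 5 lower (14 and 6 in pairs). Besides NTRK2, the lymphatic growth factor VEGFC was higher, at 4.14, 3.68 and 4.32 in FG and 6.86, 6.88 and 7.19 in L3.6pl (2.93 ± 0.19, adjusted p = 7.22e-04), and so was EPHA2 (0.92 ± 0.16, adjusted p = 0.0182; 0.0697 without L3.6pl replicate 2). Its ligand EFNA1 was lower, at 9.22, 9.15 and 9.35 in FG and 7.72, 7.21 and 7.46 in L3.6pl (-1.78 ± 0.14, adjusted p = 0.00148). FGFR2 was lower as well (-1.79 ± 0.28, adjusted p = 0.0133; 0.0673 without L3.6pl replicate 2), with 8 of its 11 probe sets of the same sign, and so was PDGFC (-1.07 ± 0.14, adjusted p = 0.00726). VEGFA was highest on replicate 1 of both lines, at 12.16, 11.005 and 10.15 in FG and 12.40, 11.45 and 11.11 in L3.6pl, and did not pass (0.55 ± 0.56, adjusted p = 0.664; in pairs 0.0377). The IGF-binding proteins IGFBP3 (1.87 ± 0.26, adjusted p = 0.00865) and IGFBP6 (1.90 ± 0.24, adjusted p = 0.00629) were the 2 of 7 that passed, and in pairs 3 were higher and 1 lower.

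Immediate early genes are induced within minutes of growth factor signalling, and 4 of 18 were higher and 1 lower (10 and 2 in pairs). EGR1 was at 7.12, 5.11 and 4.96 in FG and 10.18, 10.21 and 9.95 in L3.6pl, with FG replicate 1 the highest of its line, and differed by 4.38 ± 0.56, adjusted p = 0.00668. DUSP6, a phosphatase that is a target and inhibitor of ERK, was at 7.23, 6.21 and 6.87 in FG and 10.70, 10.45 and 10.70 in L3.6pl (3.85 ± 0.26, adjusted p = 8.06e-04). IER3 was at 7.79, 7.59 and 8.70 in FG and 10.16, 10.28 and 10.50 in L3.6pl (2.29 ± 0.29, adjusted p = 0.00655). The lowest L3.6pl array was above the highest FG array by more than 1 log2 unit for each of these genes. JUN was lower (-0.71 ± 0.11, adjusted p = 0.0137; 0.067 without L3.6pl replicate 2).

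Of 25 matrix and basement membrane genes, 1 was higher and 5 were lower in L3.6pl (2 and 7 in pairs). COL12A1, a fibril-associated collagen, was at 8.97, 8.76 and 8.91 in FG and 4.24, 4.02 and 4.98 in L3.6pl. Its log2 difference was -4.47 ± 0.25, adjusted p = 4.41e-04. TGFBI, a matrix protein induced by TGF-beta, was at 9.48, 8.62 and 9.20 in FG and 5.54, 5.27 and 5.64 in L3.6pl (-3.62 ± 0.23, adjusted p = 7.22e-04). FBN1, fibrillin, was higher (1.48 ± 0.25, adjusted p = 0.0173; 0.0713 without FG replicate 2). Among the markers of fibroblasts, COL3A1, a fibrillar collagen, was at 9.99, 11.22 and 11.85 in FG and 5.58, 5.76 and 5.46 in L3.6pl. This is a difference of -5.42 ± 0.45, adjusted p = 0.00154. COL1A1 was at 10.10, 9.60 and 9.50 in FG and 9.11, 8.75 and 8.40 in L3.6pl (-0.98 ± 0.23, adjusted p = 0.0491; 0.164 without L3.6pl replicate 2). The summed log2 level of the 7 fibroblast markers was 42.5 to 44.0 on the FG arrays and 38.2 to 39.0 on the L3.6pl arrays. Only COL3A1 and COL1A1 of these markers were lower in L3.6pl, and the gap came mostly from COL3A1. The others were higher without passing, LUM by 1.00 (adjusted p = 0.0809 with limma) and the rest by 0.07 to 0.19. The other markers on that list, LUM, DCN, PDGFRA, PDGFRB and COL1A2, were between 2.59 and 5.57 in both lines, below the median of all genes.

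The list of proteases and their inhibitors had 8 of 30 higher and 5 lower, and nearly the same in pairs (8 and 6). Beside PLAT, MMP1, interstitial collagenase, was higher, at 4.18, 5.06 and 5.03 in FG and 7.27, 7.94 and 7.95 in L3.6pl (2.96 ± 0.30, adjusted p = 0.00314). The inhibitor TIMP1 was also higher (1.23 ± 0.15, adjusted p = 0.00507). MMP7, matrilysin, was lower, at 7.41, 7.90 and 7.56 in FG and 4.51, 4.52 and 4.59 in L3.6pl (-3.08 ± 0.14, adjusted p = 2.14e-04). So were ADAM9, a membrane metalloprotease (-1.52 ± 0.11, adjusted p = 0.00113), and the cathepsin CTSB (-0.73 ± 0.14, adjusted p = 0.0222; 0.0877 without L3.6pl replicate 3). Of 14 integrins, ITGA2, a collagen receptor subunit (2.03 ± 0.23, adjusted p = 0.00472), and ITGA6, a laminin receptor subunit (1.26 ± 0.21, adjusted p = 0.0145; 0.0742 without L3.6pl replicate 2), were higher and none lower (5 and 1 in pairs). ITGB1, a beta subunit that pairs with both, did not pass (-0.22 ± 0.09, adjusted p = 0.231). The surface molecules L1CAM (-2.73 ± 0.32, adjusted p = 0.00481) and CD24 were the 2 of 27 on their list that were lower, and 3 were higher, TSPAN1 (1.00 ± 0.13, adjusted p = 0.00619) among them, against 4 lower and 4 higher in pairs.

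Of 38 chemokines, cytokines and their receptors, 6 were higher and 5 lower (14 and 6 in pairs). TNFSF10, the death ligand TRAIL, was at 8.05, 7.85 and 8.22 in FG and 11.21, 10.61 and 10.64 in L3.6pl (2.78 ± 0.19, adjusted p = 8.63e-04). The death receptor FAS was higher by 1.14 ± 0.16 (adjusted p = 0.00914). TGFB1 was at 6.69, 5.84 and 6.13 in FG and 7.64, 7.85 and 7.87 in L3.6pl (1.57 ± 0.22, adjusted p = 0.00872; 0.0514 without L3.6pl replicate 2). ACKR3, which scavenges the chemokine CXCL12, was at 7.66, 7.35 and 7.76 in FG and 4.55, 3.12 and 3.00 in L3.6pl, with L3.6pl replicate 1 above the other L3.6pl arrays, and differed by -4.03 ± 0.42, adjusted p = 0.00341. The chemokines CXCL6 (-1.49 ± 0.18, adjusted p = 0.00535) and CCL28 (-1.51 ± 0.21, adjusted p = 0.00888; 0.0518 without L3.6pl replicate 2) were lower. Of 17 S100 calcium-binding proteins, 4 were higher and 2 lower (5 and 4 in pairs). S100A8 and S100A9 form the heterodimer calprotectin and were higher together: S100A8 was at 4.51, 4.71 and 5.17 in FG and 8.13, 8.75 and 9.35 in L3.6pl (3.95 ± 0.33, adjusted p = 0.00161). S100A9 was at 6.05, 6.36 and 6.54 in FG and 9.22, 9.30 and 9.22 in L3.6pl (2.93 ± 0.14, adjusted p = 2.46e-04). S100P, a marker of pancreatic carcinoma, was lower, at 12.85, 12.56 and 12.74 in FG and 10.90, 10.80 and 11.23 in L3.6pl (-1.74 ± 0.14, adjusted p = 0.00152), and so was S100A11 (-0.42 ± 0.09, adjusted p = 0.0374; 0.137 without FG replicate 2).

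Interferon-stimulated genes were higher in 8 of 27 and lower in 1 (15 and 3 in pairs), with a median difference of 0.57 beside 0.02 over all genes. OAS1, which senses double-stranded RNA, was at 7.94, 7.90 and 8.23 in FG and 8.92, 8.79 and 9.04 in L3.6pl (0.89 ± 0.12, adjusted p = 0.0085). MX2 differed by 0.57 ± 0.08, adjusted p = 0.0085. IFIT2 was at 6.78, 6.30 and 6.65 in FG and 8.89, 7.92 and 7.98 in L3.6pl (1.69 ± 0.28, adjusted p = 0.0163; 0.0702 without FG replicate 2). IFITM1, a membrane protein that restricts virus entry, was the lower member (-0.92 ± 0.12, adjusted p = 0.0078), and its family members IFITM2 (-0.32 ± 0.10, adjusted p = 0.118; in pairs 0.0401) and IFITM3 (-0.21 ± 0.10, adjusted p = 0.313) did not pass. The IFITM genes are similar in sequence and their probes may not tell them apart. Of 15 genes of MHC class I presentation, 2 were higher, the peptide transporter TAP1 (0.88 ± 0.11, adjusted p = 0.00637) and the trimming peptidase ERAP1 (0.55 ± 0.13, adjusted p = 0.0444; 0.143 without L3.6pl replicate 2), and none lower, against 9 and none in pairs. B2M, the invariant light chain, differed by 0.06 ± 0.08, adjusted p = 0.726.

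Metabolic genes differed in a few members per list. In the urea cycle and amino acid list of 25, CPS1 was lower and 2 were higher (9 and 4 in pairs): glutamine synthetase, GLUL, at 11.30, 10.22 and 10.40 in FG and 13.02, 12.91 and 12.93 in L3.6pl (2.31 ± 0.28, adjusted p = 0.00535), and the aspartate aminotransferase GOT1 (1.20 ± 0.12, adjusted p = 0.00343). ASS1, the argininosuccinate synthetase of the urea cycle, did not pass (-0.96 ± 0.27, adjusted p = 0.0846; in pairs 0.00652). Of 29 glutathione, UGT, CYP and aldehyde dehydrogenase genes, 1 was higher and 2 lower (7 and 6 in pairs), the unpaired count being near the 10.1% over all genes. A pair of retinaldehyde dehydrogenases was among them. ALDH1A3 was at 6.82, 6.75 and 7.40 in FG and 10.52, 10.97 and 10.999 in L3.6pl (3.84 ± 0.22, adjusted p = 4.61e-04). ALDH1A1 was at 9.32, 10.24 and 10.52 in FG and 6.01, 6.65 and 7.52 in L3.6pl (-3.30 ± 0.46, adjusted p = 0.0085). These related enzymes thus lay on opposite sides of the comparison, each without overlap between the lines.

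Sterol and fatty acid synthesis genes were the list most changed by pairing: 3 of 21 were lower without pairs and 14 with them, and none was higher in either fit. The list's median difference was -0.68. Its mean on each array was 10.38, 9.42 and 9.56 in FG and 9.75, 8.74 and 8.73 in L3.6pl, so replicate 1 was the highest in each line and the lines overlapped. Without both replicate 1 arrays 14 members were lower, beside 1601 of the 19775 genes tested. The desaturases FADS2 (-2.31 ± 0.37, adjusted p = 0.0134; 0.0671 without L3.6pl replicate 2) and SC5D (-1.77 ± 0.34, adjusted p = 0.0249; 0.107 without L3.6pl replicate 2), which act in fatty acid and cholesterol synthesis, and the mevalonate pathway kinase PMVK (-0.68 ± 0.15, adjusted p = 0.0436; 0.165 without L3.6pl replicate 2) were the members that passed unpaired. SCD, the stearoyl desaturase, was not among them (0.09 ± 0.61, adjusted p = 0.96).

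Of 26 glycolysis genes, 5 were higher and none lower (10 and 1 in pairs), ALDOA (0.54 ± 0.08, adjusted p = 0.0112; 0.0611 without L3.6pl replicate 2), PFKM (0.54 ± 0.12, adjusted p = 0.0453; 0.154 without FG replicate 2) and ENO2 (0.91 ± 0.18, adjusted p = 0.0271; 0.101 without FG replicate 2) among them, and GAPDH did not pass (0.09 ± 0.08, adjusted p = 0.614). Of 29 textbook targets of the hypoxia-inducible factors, 2 were higher and 1 lower (7 and 3 in pairs). The unpaired count is near the 10.1% called over all genes. PLIN2, which coats lipid droplets, was at 6.29, 6.78 and 6.94 in FG and 8.71, 8.43 and 8.63 in L3.6pl (1.92 ± 0.18, adjusted p = 0.00266). P4HA2, a collagen prolyl hydroxylase, differed by 0.77 ± 0.17, adjusted p = 0.0373 (0.129 without L3.6pl replicate 3), and EGLN1, an oxygen sensor, by -0.85 ± 0.19, adjusted p = 0.0441 (0.166 without L3.6pl replicate 2). Of 22 NRF2 targets and AKR1 enzymes, none was higher and 2 were lower (3 and 4 in pairs), ME1 (-1.10 ± 0.16, adjusted p = 0.0107) and FTL (-0.56 ± 0.10, adjusted p = 0.0206; 0.0939 without L3.6pl replicate 2). This unpaired count too is near the 10.1% over all genes.

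Drug transporters and gemcitabine enzymes were higher in 3 of 24 and lower in 4 (10 and 6 in pairs). ABCA1, a cholesterol exporter, was at 5.25, 5.08 and 4.98 in FG and 7.75, 7.88 and 7.57 in L3.6pl (2.63 ± 0.12, adjusted p = 2.32e-04). ABCC1 (1.32 ± 0.22, adjusted p = 0.0162; 0.0724 without FG replicate 2) and ABCC3 (0.89 ± 0.16, adjusted p = 0.0186; 0.0781 without L3.6pl replicate 3), exporters of conjugated compounds, were higher, while the related ABCC2, at 6.59, 6.55 and 6.72 in FG and 4.16, 4.26 and 3.90 in L3.6pl (-2.51 ± 0.12, adjusted p = 2.61e-04), and ABCC4 (-1.34 ± 0.11, adjusted p = 0.00145) were lower. ABCC5, the other ABCC gene on the list and named after its values were seen, did not pass (0.68 ± 0.20, adjusted p = 0.0884; in pairs 0.00217). RRM2B, a subunit of ribonucleotide reductase, was lower (-1.22 ± 0.10, adjusted p = 0.00148).

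None of 29 proliferation genes passed with limma, 3 had an unadjusted p below 0.05, and 6 were higher in pairs. MKI67 was at 7.18, 9.50 and 9.43 in FG and 8.92, 9.56 and 9.44 in L3.6pl, low on replicate 1 of both lines and most of all on that of FG, and its difference of 0.60 ± 0.63 had an adjusted p of 0.672 and of 0.267 in pairs. Of 25 genes on the list of cell cycle inhibitors, RB1 and p53 targets, not all of them inhibitors or targets, 2 were higher and 5 lower (7 and 7 in pairs). RB1, the retinoblastoma tumour suppressor on chromosome 13, was at 10.13, 10.19 and 10.12 in FG and 9.31, 9.39 and 9.24 in L3.6pl (-0.84 ± 0.08, adjusted p = 0.00284). SFN was lower (-0.81 ± 0.16, adjusted p = 0.0268; 0.0962 without FG replicate 2), and the kinase CDK6 was higher (0.74 ± 0.13, adjusted p = 0.0174; 0.0858 without L3.6pl replicate 2). CDKN2A was measured at 10.94 ± 0.08 in FG and 11.30 ± 0.06 in L3.6pl (SD, n = 3) and did not pass (0.35 ± 0.08, adjusted p = 0.052; in pairs 0.0233). Of 23 apoptosis regulators, FAS was higher and BIRC2, an inhibitor of apoptosis, lower, at 12.86, 12.73 and 12.62 in FG and 11.58, 11.24 and 11.10 in L3.6pl (-1.43 ± 0.15, adjusted p = 0.0032), against 4 higher and 3 lower in pairs. The unpaired count of that list is near the 10.1% over all genes. Of 18 heat shock and stress genes none passed with limma, 1 had an unadjusted p below 0.05, and 3 were higher and 3 lower in pairs.

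In the Hippo, TGF-beta and BMP list, 4 of 34 were higher and 7 lower (9 and 11 in pairs). Of the higher genes, SOSTDC1 and TGFB1 are described above, and BMP7, a BMP ligand, was at 6.93, 6.72 and 6.37 in FG and 8.40, 8.23 and 8.26 in L3.6pl (1.62 ± 0.16, adjusted p = 0.00262). The lower genes included inhibitors of TGF-beta or BMP signalling, while SOSTDC1, a BMP antagonist too, was among the higher ones. The activity of these pathways was not tested. BAMBI, a decoy receptor, was at 8.25, 7.54 and 7.88 in FG and 5.45, 5.72 and 5.75 in L3.6pl (-2.25 ± 0.19, adjusted p = 0.0018). SKIL differed by -1.96 ± 0.20, adjusted p = 0.00343. SMAD7, the inhibitory SMAD, was at 6.06, 5.80 and 5.98 in FG and 4.80, 4.68 and 4.70 in L3.6pl (-1.22 ± 0.10, adjusted p = 0.00154). Of 34 Wnt and Notch genes, 6 were higher and 2 lower (13 and 4 in pairs). DKK3, a secreted protein of the Dickkopf family, was at 5.67, 5.23 and 5.88 in FG and 9.00, 8.68 and 9.08 in L3.6pl (3.33 ± 0.20, adjusted p = 5.53e-04). NRARP, a Notch target, was at 8.07, 7.81 and 7.79 in FG and 9.91, 9.74 and 9.32 in L3.6pl (1.77 ± 0.18, adjusted p = 0.0029). LFNG, which glycosylates Notch, differed by 1.00 ± 0.14, adjusted p = 0.00807. The Wnt receptor FZD10 was lower (-1.56 ± 0.19, adjusted p = 0.00578), as was the ligand WNT10A (-0.73 ± 0.11, adjusted p = 0.0119; 0.0592 without L3.6pl replicate 2).

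**Figure D2:**
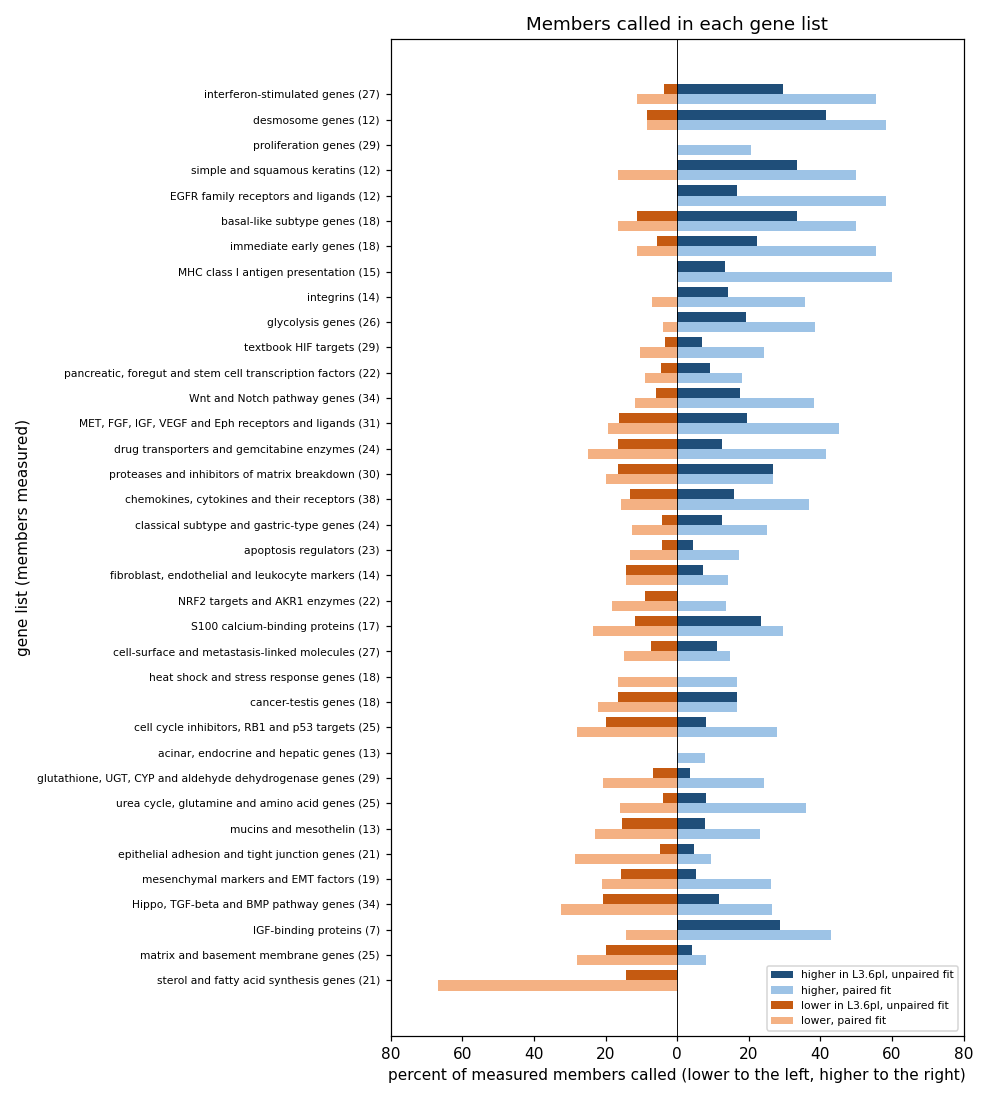
Percent of measured members called lower (to the left) or higher (to the right) in L3.6pl for each of the 36 gene lists, dark bars for the unpaired fit and light bars for the fit with same-numbered arrays as pairs, ordered by the list's median difference. The pairs call more members in each of the 36 lists, with the largest gain in share in the sterol and fatty acid list at the bottom (14 of 21 lower against 3).

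Gene position was described next, as chromosome order in the gene table, over the 11111 genes with a mean of at least 6 in either line. Of these, 7.44% were higher and 8.51% lower in L3.6pl in the unpaired fit. On chromosome 13, 59 of 200 genes were lower (29.5%) and 4 higher, and on chromosome 8, 96 of 404 were lower (23.8%) and 12 higher. Chromosome 11 had 88 of 654 lower (13.5%). The other direction was seen on chromosome 7, with 92 of 513 higher (17.9%), chromosome 21, with 19 of 111 higher (17.1%) and 3 lower, chromosome 3, with 13.3% higher, chromosome 9, with 12.5% higher and 1.51% lower, and chromosome 16, with 11.5% higher. With pairs 22.9% of these genes were higher and 19.3% lower. Chromosomes 13 and 8 again had the largest shares of lower genes, 54% and 47.0%, while the share on chromosome 11 (26.1%) was below those on chromosomes 1 (27.9%) and 19 (27.5%). The order of the higher shares changed: chromosome 21 came first with 55.9%, then chromosome 9 with 42.3%, chromosome 16 with 41.8%, chromosome 7 with 38.0% and chromosome 3 with 35.6%. The median difference of a chromosome ran from -0.38 on chromosome 13 to 0.38 on chromosome 21. DNA copy number was not measured.

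**Figure D3:**
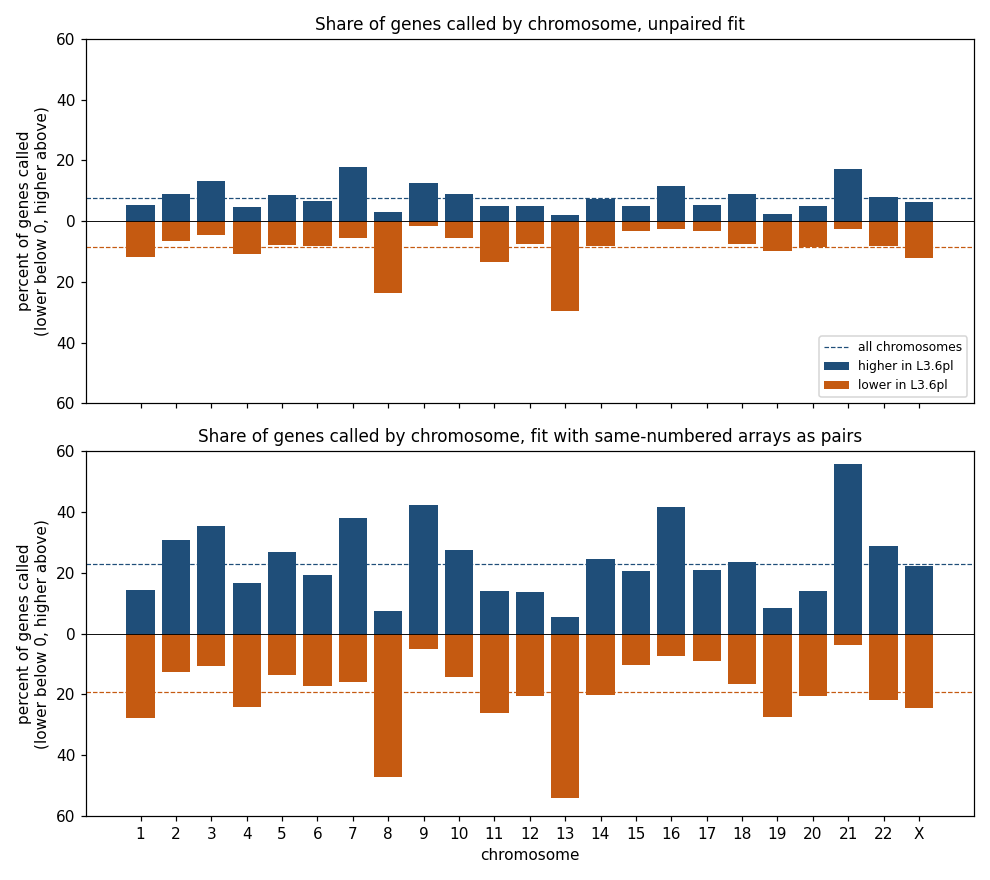
Percent of genes called higher (blue, above 0) or lower (orange, below 0) in L3.6pl on each chromosome, for the unpaired fit (upper panel) and the fit with pairs (lower panel), among genes with a mean log2 intensity of at least 6 in either line; dashed lines give the shares over all chromosomes. Chromosomes 13 and 8 have the longest bars below 0 in both panels, and the longest above 0 are those of chromosomes 7 and 21 without pairs (17.9% and 17.1%) and of 21, 9 and 16 with them (55.9%, 42.3% and 41.8%).

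Runs of neighbouring genes were built from windows of 8 genes with at least 75% called in the same direction, joined where they met, trimmed to called genes at both ends and kept if at least 8 genes long. There were 14 in the unpaired fit. The longest was on chromosome 11, from PANX1 to MMP7, where 20 of 23 genes were lower (22 in pairs), with a median of -1.13. It holds FUT4, a fucosyltransferase, at 9.14, 9.29 and 9.29 in FG and 5.47, 5.73 and 5.53 in L3.6pl (-3.67 ± 0.10, adjusted p = 6.87e-05), MMP7, BIRC2 and JRKL (-1.33 ± 0.08, adjusted p = 6.59e-04). YAP1, the transcriptional effector of the Hippo pathway, lies in the same run and was at 12.87, 12.56 and 12.20 in FG and 11.45, 11.21 and 10.75 in L3.6pl (-1.40 ± 0.24, adjusted p = 0.0164; 0.0713 without L3.6pl replicate 2); it is given for its position, chosen after its values were seen. A second run on chromosome 11, from TRIM29 to SIAE, had 11 of 13 lower (12 in pairs), TBCEL (-1.56 ± 0.20, adjusted p = 0.00631), SIAE (-1.63 ± 0.21, adjusted p = 0.00705) and ZNF202 (-1.21 ± 0.10, adjusted p = 0.00178) among them. SC5D of the sterol list lies in that run.

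Chromosome 7 held 3 runs of higher genes. In the first, from TMEM106B to SNX13, all 11 genes were higher in both fits, with a median of 0.99, and they include SOSTDC1, AGR2, LOC105375172 and ANKMY2, at 9.10, 9.06 and 8.91 in FG and 10.63, 10.63 and 10.47 in L3.6pl (1.56 ± 0.10, adjusted p = 6.45e-04). The others, from SP4 to NUP42 and from PALS2 to CBX3, each had 6 of 8 higher (6 and 7 in pairs), CDCA7L (0.84 ± 0.09, adjusted p = 0.00385) and OSBPL3 (1.16 ± 0.11, adjusted p = 0.00275) among them. SOSTDC1 differed by far more than the median of its run.

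Chromosome 8 held 4 runs of lower genes: SLC20A2 to HGSNAT (6 of 8), PKIA to CHMP4C (8 of 12, or 66.7%, below 75% once its windows were joined), PLEKHF2 to LAPTM4B (8 of 10) and RNF19A to DCAF13 (10 of 13), with medians between -0.92 and -0.88. In pairs 7, 10, 9 and 11 of their genes were lower. FZD6, a Wnt receptor, lies in the last, at 10.61, 10.56 and 10.28 in FG and 8.12, 8.02 and 8.16 in L3.6pl (-2.38 ± 0.11, adjusted p = 2.67e-04), and so do ZNF706 (-1.21 ± 0.09, adjusted p = 0.00111) and RRM2B. LAPTM4B, a lysosomal membrane protein, differed by -1.16 ± 0.09, adjusted p = 0.00126, and PKIA, an inhibitor of protein kinase A, by -2.32 ± 0.23, adjusted p = 0.00312. Against the rest of the chromosome, PLAT and STC1, also on chromosome 8, were among the genes furthest above FG. Single runs were found on chromosome 1 (G0S2 to SLC30A1, 6 of 8 lower), chromosome 4 (PPP2R2C to MRFAP1L1, 6 of 8 lower, S100P among them), chromosome 9 (KYAT1 to DOLPP1, 6 of 8 higher), chromosome 19 (ZNF175 to PPP2R1A, 6 of 8 lower, ZNF350 at -1.85 ± 0.18 among them) and the X chromosome (6 of 8 lower). In pairs 8 genes of the run on chromosome 19 and 7 of each of the others were called. With pairs, under which more genes pass, 122 runs met the same rule.

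**Figure D4:**
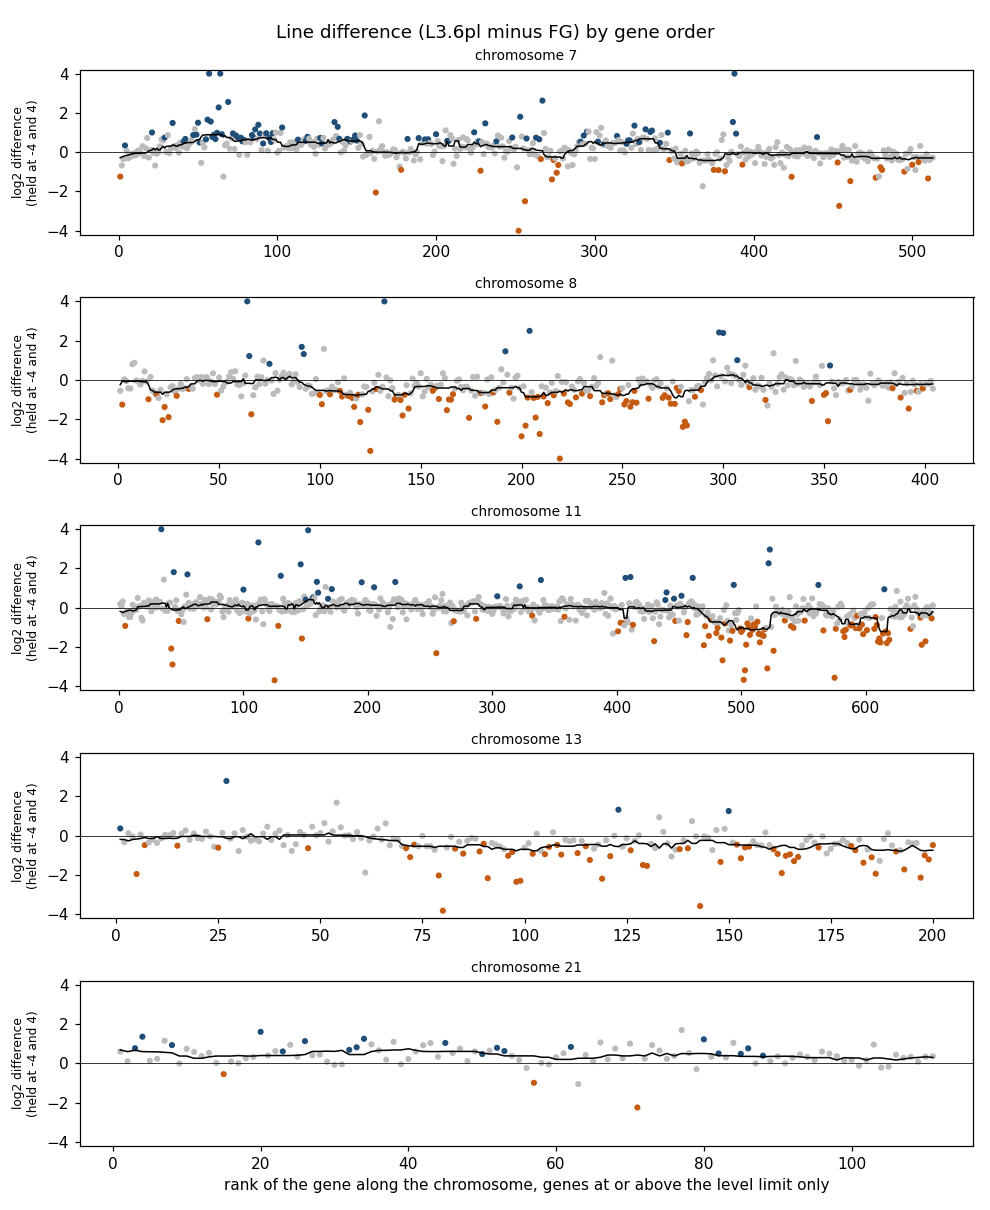
Line difference in log2 (y axis, values past 4 in either direction drawn at 4) of each gene by its rank along chromosomes 7, 8, 11, 13 and 21 (x axis), genes called higher in blue, lower in orange and not called in grey; the black line is a running median of 15 genes. The median stays above 0 along the first stretch of chromosome 7, below 0 along much of chromosomes 8 and 13, and dips well below 0 towards the far end of chromosome 11.

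The same line difference was then read in the 6 hypoxia arrays, 3 of each line. None of them entered a test of the comparison above, though they helped to choose each gene's probe set. There 2773 genes (14% of those tested) passed. Of the 1991 genes called in normoxia, 1930 (96.9%) had the same sign in hypoxia, beside 70.2% over all genes. Over all genes the median absolute difference in normoxia was only 0.15, so many signs there rest on small differences. Of the 1991, 1205 were also called with the same sign, which is 60.5% of the genes called in normoxia and 43.5% of those called in hypoxia, and none was called with the opposite sign. MAGEA6 differed by -7.31 in hypoxia (adjusted p = 1.59e-05), CPS1 by -6.15 (adjusted p = 1.44e-04), SOSTDC1 by 6.33 (adjusted p = 3.94e-04) and NTRK2 by 5.22 (adjusted p = 8.07e-05). All 4 kept their sign and their call. In each of the 14 runs at least 75% of the genes kept the direction of the run in hypoxia.

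A direct test of the 2 line differences against each other, the interaction in a model of all 12 arrays, called 5 genes (0.0253%). These are SERTAD4, MAOA, RAB31, ATF3 and CREB5, of which SERTAD4 was named by its run on chromosome 1 and the others were chosen after their values were seen. SERTAD4 was at 7.55, 7.07 and 7.36 in FG and 5.16, 4.71 and 4.98 in L3.6pl. The line difference was -2.38 ± 0.17, adjusted p = 9.51e-04, in normoxia and -0.37 in hypoxia. MAOA, which breaks down monoamines, differed by 1.22 ± 0.13 in normoxia and 3.44 in hypoxia. RAB31, a small GTPase of vesicle transport, differed by -0.80 ± 0.10 and 0.30. ATF3 (-0.23 ± 0.14 and -2.53) and CREB5 (0.06 ± 0.08 and -2.19) did not pass in normoxia. ACKR3 differed by -4.03 in normoxia and 0.14 in hypoxia, and its interaction did not pass (adjusted p = 0.0508).

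**Figure D5:**
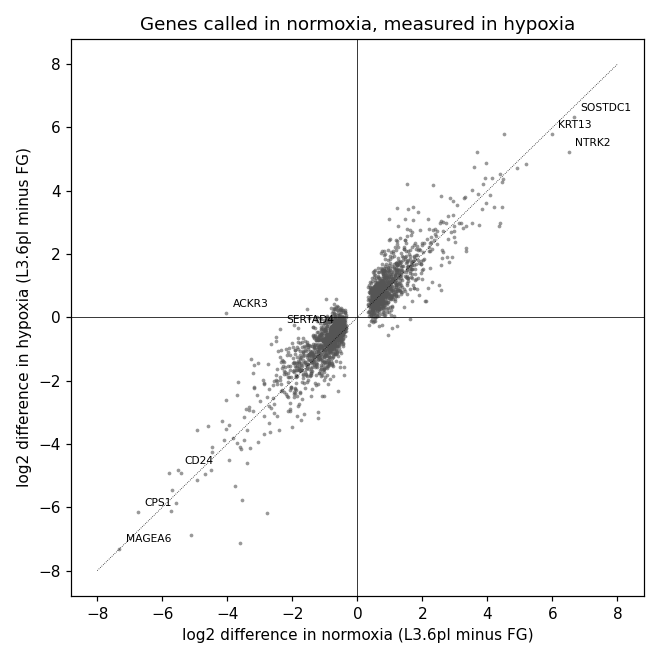
Line difference in hypoxia (y axis, log2, L3.6pl minus FG) against that in normoxia (x axis) for the 1991 genes called in normoxia, 1 point per gene; the dotted line marks equal differences. Of the points, 1930 lie in the lower left or upper right corner of the plot, MAGEA6, CPS1 and SOSTDC1 lie close to the dotted line, and ACKR3 and SERTAD4 lie near 0 in hypoxia.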

How the data were processed

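The 12 arrays each report 54675 probe sets. Intensities were deposited on a linear scale after normalization. The authors used RMA, per the submitters' processing notes, but its version and the return to a linear scale are not given in the sources used here. Array medians were 39.1 to 41.4, so only log2 was taken. Of the probe sets, 41091 had exactly 1 gene in the platform annotation, 1801 several and 11721 none, leaving 62 controls. For 10523 genes with more than 1 probe set, that with the highest mean over the 12 arrays was used. Families with similar sequences (MAGEA, IFITM, SERPINB3 and SERPINB4, HLA) can share probes.

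The 6 normoxia arrays were fitted with limma 3.58.1 in R 4.3.3 (lmFit, eBayes; 4 residual and 2.31 prior degrees of freedom), with Benjamini-Hochberg adjustment over 19775 genes and calls at an adjusted p below 0.05. Every adjusted p in the text is from such a limma fit. On simulated data the fit called 39 of 67 genes changed by a log2 of 1, 63 of 67 changed by 2 and 64 of 66 changed by 3, with 7 false calls. The simulation drew noise separately for each gene and array and changed 200 genes. It held no shift shared by same-numbered arrays, unlike the data, so these rates need not hold for the real arrays. The labels number the arrays. Deviations from the group means correlated at 0.735, 0.528 and 0.675 between same-numbered arrays. Between arrays of unlike number they correlated at -0.653 to 0.262, below 0 wherever replicate 1 was involved. The numbers were therefore taken to pair the arrays, a choice made from these same values. The fit with a replicate block (2 residual and 3.92 prior degrees of freedom) is given beside the unpaired one. The labels do not say that replicates are separate cultures, so p-values measure only the spread between these arrays, whose number limits the precision.

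The members, the 36 gene lists and the settings were chosen with earlier results of these data known. Lists are described by counts, with no set test. Named genes are the 15 with the largest difference in each direction among called genes whose lines did not overlap. Each list adds up to 3 called members per direction and up to 2 not called. Each run of neighbouring genes adds the 3 with the smallest adjusted p, and 10 genes were fixed. Of the largest differences 1 gene is not described. The text gives many but not all of the other genes under the rule. Gene order is that of RefSeq (GRCh38.p14), in which 19735 of the genes were found.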

Additional observations from a re-analysis of the deposited data

Results flagged for a closer look

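For 5 genes the line difference itself differed between normoxia and hypoxia, by the interaction in a limma model of all 12 arrays. The values below are the normoxia difference minus the hypoxia difference, each L3.6pl minus FG in log2. SERTAD4 had an interaction of -2.01 ± 0.23 (SE, adjusted p = 0.0193), from -2.38 in normoxia and -0.37 in hypoxia, where the mean of FG was 7.33 in normoxia and 5.25 in hypoxia. MAOA had -2.22 ± 0.28 (adjusted p = 0.0289), from 1.22 and 3.44. RAB31 had -1.10 ± 0.13 (adjusted p = 0.0289), from -0.80 and 0.30. ATF3 had 2.30 ± 0.20 (adjusted p = 0.00259), from -0.23 and -2.53, and CREB5 had 2.25 ± 0.19 (adjusted p = 0.00259), from 0.06 and -2.19. All of these share the normoxia arrays with the comparison above.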

How the results depend on the processing

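The count of called genes, 1991 (937 higher and 1054 lower in L3.6pl), moved by over 1.5 times under several settings. The replicate block, with same-numbered arrays as pairs, gave 5361 (2882 and 2479), and array quality weights gave 5685 (3147 and 2538). Without both replicate 1 arrays there were 3201 (1600 and 1601), and with all probe sets tested singly 3297 (1445 and 1852), a larger number of tests. Stricter rules gave fewer, 739 (327 and 412) at an adjusted p below 0.01 and 144 (54 and 90) for a least log2 difference of 1. Leaving out each array in turn gave 816 to 2359 genes, 378 to 1147 higher and 433 to 1212 lower. The model of all 12 arrays, with or without the block, cyclic loess, median centring, leaving out dim genes, averaging a gene's probe sets and moderation with trend and robust estimation stayed within 1.5 times (1698 to 2810). The share of called genes with the same sign in hypoxia was 96.9%, 97.7% in the 12-array model and, in a setting chosen after seeing the data, 97.4% without replicate 3 of L3.6pl in hypoxia. Of 246 genes under the naming rule, 173 were called, and 119 of them kept the call without each of the 6 arrays. Under every setting in which the named genes were followed 112 kept it, and no named gene changed sign while called. They were not followed at an adjusted p below 0.01, for a least log2 difference of 1 or with probe sets tested singly. Dim named genes were not tested where dim genes were left out. Of the 73 named genes not called, 32 passed in pairs. The cause of these changes was not tested, apart from the number of tests or arrays that a setting itself alters.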
